A study of Mus musculus with 27 samples.

Results

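*Bod1l* is the gene that crosses the distal end of the topologically associating domain (TAD) of the *Nkx3-2* locus, and its contacts with 3 *Nkx3-2* enhancer viewpoints were measured by 4C-Seq. A restriction fragment was counted as part of the gene when its midpoint lay between the annotated ends of *Bod1l*, at chr5:41787538-41844315 (mm10). This rule used positions only and selected 15 *BglII* fragments, out of 51862 on chromosome 5 and 949826 in the genome. 4C-Seq fixes chromatin, cuts it with a restriction enzyme, ligates ends that lay close together, and sequences the partners ligated to a chosen viewpoint. Livers, forelimb buds and hindlimb buds of mouse embryos at E14.5 were used, each tissue in 3 replicates that pooled 5 to 6 embryos. The sample labels name the strain C57BL/6Ncrl, whereas the extraction protocol names C57BL/6NJ. Each of the 9 templates was amplified with 1 pool of 6 viewpoint primers, so the N1, N2 and N3 libraries of a replicate share a template and are not independent samples. Whether the 3 tissues of a replicate number came from the same embryos is not given in the sources used here, and the p-values measure the spread between pools, not between single embryos.

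BOD1L, related to the chromosome biorientation factor BOD1, is known for protecting stalled replication forks from degradation. A TAD is a stretch of chromosome whose sequences contact each other more often than they contact sequences outside it, and enhancers act mainly on promoters of their own domain. *Nkx3-2*, a repressor of cartilage maturation, lies in the same TAD as the 3 enhancers. The promoter of *Bod1l* lies beyond the TAD end, and the gene is read from there back into the TAD. The question addressed here is how far the contacts of N1, N2 and N3 extended over the gene, and whether they differed on the 2 sides of the TAD end.

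The TAD runs from 41050000 to 41810000 on chromosome 5, so its end falls inside *Bod1l*. It was mapped in mouse embryonic stem cells, not in the limb buds or liver measured here. Of the 56.8 kb of the gene, 22.5 kb (39.6%) lie inside the TAD and the other 34.3 kb lie beyond its end. *Bod1l* is on the minus strand. The part inside the TAD is therefore the 3′ part of the gene, and the annotated 5′ end lies 34.3 kb beyond the TAD end. By the midpoint rule, 4 fragments belong to the inside part and 11 to the part beyond. The 5′ end lies 679 kb from the N1 primer, 440 kb from the N2 primer and 309 kb from the N3 primer. The N2 primer sits downstream of the N2 enhancer itself.

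The nested viewpoint primers are shown because every contact reported here is a contact with one of these positions. Each matches GRCm38 on the plus strand, N1 at chr5:41165733-41165752, N2 at chr5:41403985-41404010 and N3 at chr5:41535790-41535813.
N1 primer: cttgagtttgccacccaaac
N2 primer: gcgatctgaagaactaagaagcttag
N3 primer: gttgtaagtagcagacacagagat

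The *BglII* sites shown next are the 4 in or beside *Bod1l* with the most reads in counts that were equal on both sides of the site in the same library, and they were chosen after these counts were seen. A ligation product is read from the cut end of a fragment, so contacts may have been joined at such sites. Counts per fragment do not show which end was ligated. The letters in capitals mark the *BglII* recognition site, and each sequence was read from the plus strand of GRCm38. First and second in the labels count only the sites shown. Other intronic sites lie nearer to the TAD end, 0.572, 1.17 and 3.77 kb beyond it. The intronic site at chr5:41796252-41796311 lies 13.7 kb inside the TAD end, the intronic sites at chr5:41815994-41816053 and chr5:41830434-41830493 lie 6.02 kb and 20.5 kb beyond it, and the intergenic site at chr5:41845047-41845106 lies 0.759 kb upstream of the annotated 5′ end.
Intronic site inside the TAD: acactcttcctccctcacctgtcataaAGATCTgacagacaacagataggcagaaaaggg
First intronic site beyond the TAD end: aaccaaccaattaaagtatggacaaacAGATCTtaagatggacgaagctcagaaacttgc
Second intronic site beyond the TAD end: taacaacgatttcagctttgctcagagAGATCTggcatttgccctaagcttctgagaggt
Site upstream of the 5′ end: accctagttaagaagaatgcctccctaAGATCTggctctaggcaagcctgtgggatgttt

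Depth differed greatly between viewpoints. Libraries held 2984 to 20134 reads from N1, 165471 to 570405 from N2 and 924023 to 2376866 from N3. A count of 0 over the gene allows up to 3 reads, which on the scale of reads per kb relative to library depth (RPKM) is 2.62 to 17.7 from N1, 0.0926 to 0.319 from N2 and 0.0222 to 0.0572 from N3. These limits cover counting error only, because the reads were amplified and carried no molecular identifiers. Levels from different viewpoints were therefore not compared with each other.

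Reads on *Bod1l* were few and came mostly from liver. Over the 27 libraries the gene held 280 reads, of which 241 (86.1%) were in liver libraries and 39 in limb libraries. Reads were found in 6 of the 9 liver libraries and in 5 of the 18 limb libraries. The 3 libraries of liver replicate 3 alone held 184 reads (65.7%), whereas liver replicate 2 held 0 reads on the gene from every viewpoint.

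From N1, the farthest and shallowest viewpoint, no read of the 6 limb libraries fell on *Bod1l*. The liver libraries held 10, 0 and 6 reads for replicates 1, 2 and 3, which is 5.60 ± 4.92 RPKM (SD, n = 3). From N2, the forelimb libraries held 0, 0 and 7 reads, the hindlimb libraries 0, 0 and 3 reads, and the liver libraries 39, 0 and 73 reads. The corresponding levels were 0.153 ± 0.265 RPKM in forelimb, 0.106 ± 0.184 in hindlimb and 2.28 ± 2.91 in liver (SD, n = 3 each). The liver libraries with reads stood above every limb library, and the liver library without reads stood with the 4 limb libraries at 0. From N3, the forelimb libraries held 23, 0 and 5 reads, the hindlimb libraries 0, 0 and 1, and the liver libraries 8, 0 and 105. The levels were 0.0968 ± 0.118 RPKM in forelimb, 0.00371 ± 0.00643 in hindlimb and 0.283 ± 0.430 in liver (SD, n = 3 each). The range of the liver libraries enclosed that of the limb libraries, and every SD from N2 and N3 was larger than its mean.

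**Figure D1:**
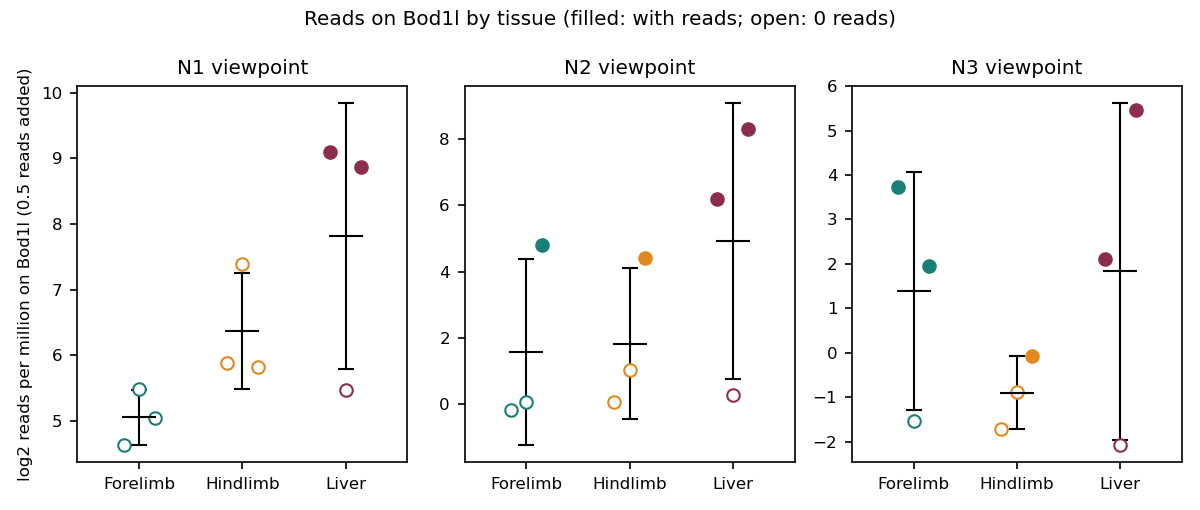
Reads on *Bod1l* as log2 reads relative to library depth (log2 RPM, with 0.5 reads added) for each library, by viewpoint and tissue. Filled points are libraries with reads on the gene, open points are libraries with 0 reads, whose height reflects depth alone, and bars are the mean ± SD of 3 libraries on a scale of its own in each panel. All 6 N1 limb libraries are open, and the highest point of each panel is a liver library.

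Along the gene, reads lay on 12 of the 15 fragments, 11 of which held reads in liver and 6 in limb. The 3′-most fragment, chr5:41785701-41795158, holds exons 23 to 27 of the 27 annotated for the reference transcript and extends 1.84 kb past the 3′ end of the gene. It held 26 of the 39 limb reads, 23 of them in the N3 library of forelimb replicate 1, 1 in the N3 library of forelimb replicate 3, and 1 each in the N2 libraries of forelimb and hindlimb replicate 3. In liver it held only 2 reads, from N2 in replicate 3. Each N2 count was equal to that of the adjoining fragment across the intergenic site 1.84 kb past the 3′ end, outside the gene. Whether the N3 reads came from the gene or from the sequence past its 3′ end cannot be told from counts per fragment. The next fragment with reads, the intronic chr5:41795239-41796279, held reads in liver alone. It had 5 from N1 in replicate 1, 1 from N2 in replicate 1, 29 from N2 in replicate 3 and 25 from N3 in replicate 3. The fragment that holds the TAD end, chr5:41796280-41810572, with exons 13 to 22, carried the same liver counts in the same libraries and 1 more limb read, from N3 in hindlimb replicate 3. The 2 fragments meet at the intronic site inside the TAD shown above.

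Beyond the TAD end, the adjoining fragments chr5:41813771-41816021 and chr5:41816022-41823868 were the only ones of that part with limb reads from N2. Each held 3 N2 reads in forelimb replicate 3 and 1 in hindlimb replicate 3, beside 1 N2 read and 2 N3 reads in liver replicate 3. The first of them also held 1 N2 read in liver replicate 1. Nearer to the 5′ end, chr5:41829719-41830461 held 3 reads from N1 in liver replicate 3, 4 from N3 in liver replicate 1 and 3 from N3 in liver replicate 3. Its neighbour chr5:41830462-41835282 held 3, 4 and 24 reads in the same 3 libraries. All these reads were from liver. The only other limb reads beyond the TAD end were 4 from N3 in forelimb replicate 3, 2 on each of 2 neighbouring fragments. In liver, chr5:41835283-41837777 held 21 N3 reads and 1 N2 read in replicate 3, and chr5:41811170-41813770 held 1 N2 read in replicate 1. Another 3 fragments of the gene, among them chr5:41823869-41829718, held no read in any library.

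**Figure D2:**
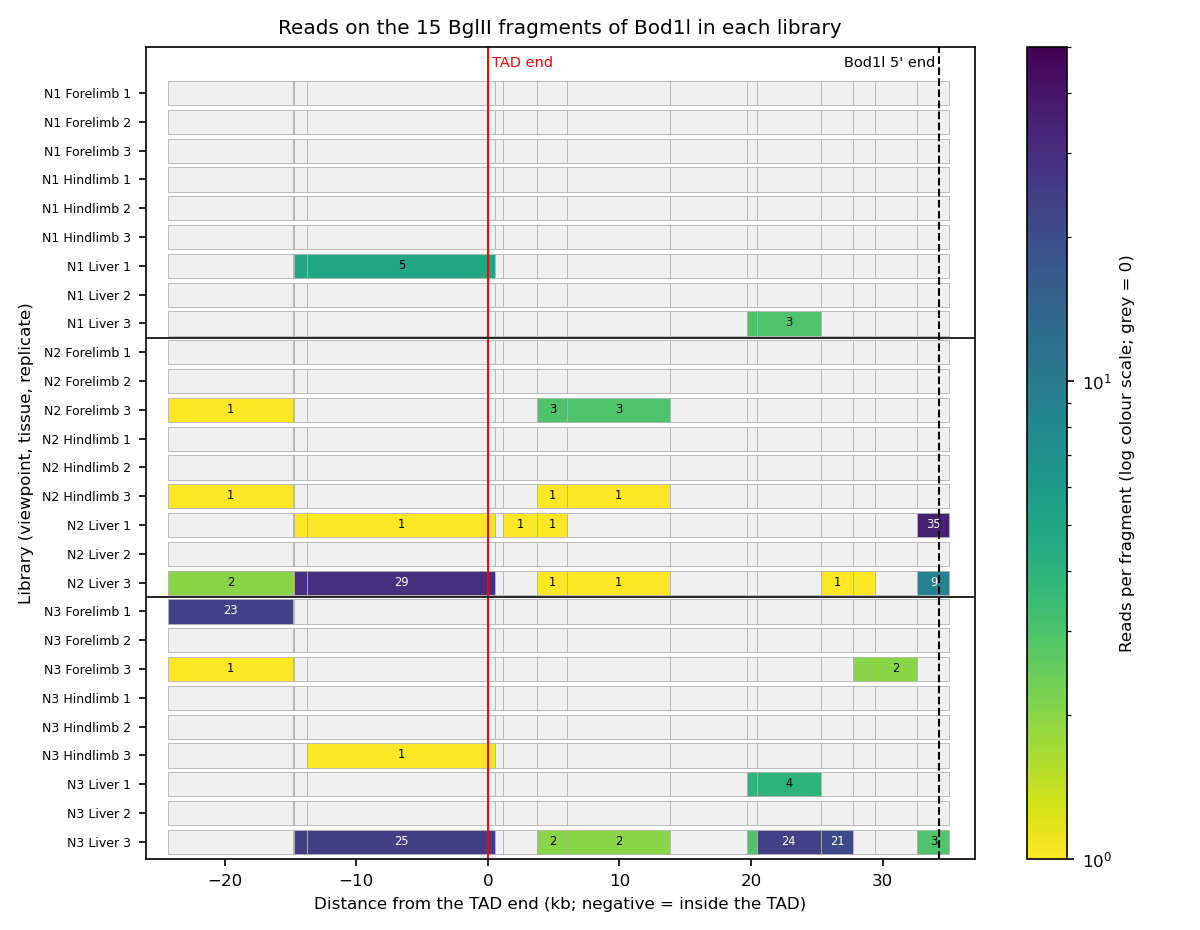
Reads on each of the 15 *BglII* fragments of *Bod1l*, drawn to scale by distance from the TAD end in kb, with 1 row for each of the 27 libraries. Colour gives reads per fragment on a log scale, grey is 0, the red line is the TAD end and the dashed line the 5′ end of the gene. Reads stand in few cells, most of them in liver replicates 1 and 3.

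The promoter is the element of the gene on which an enhancer would act. The fragment that holds the annotated 5′ end and exon 1, chr5:41842649-41845074, was without reads in all 18 limb libraries. In liver it held 35 N2 reads in replicate 1, 9 N2 reads in replicate 3 and 3 N3 reads in replicate 3. The fragment on the other side of the site upstream of the 5′ end also held 35 and 9 N2 reads in these libraries, and part of the 5′ fragment itself, 0.759 kb, lies outside the gene. For comparison, the fragment that holds the 5′ end of *Nkx3-2*, chr5:41762614-41766981, held 8, 57 and 0 limb reads and 9, 96 and 154 liver reads from N1, N2 and N3. Its limb reads came from 1 of 6 N1 libraries and 3 of 6 N2 libraries. No test was run between these single fragments.

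Most counts came in equal pairs on the 2 fragments that share a *BglII* site. Of the 38 counts above 0 over fragments and libraries, 31 (81.6%) were equal to the count of an adjoining fragment in the same library, which held for 4 of 4 counts from N1, 19 of 19 from N2 and 8 of 15 from N3. Whether 1 read could be counted on both sides of a site is not given in the sources used here. With equal neighbours taken once, the reads on the gene fell from 280 to 198, with 167 in liver and 31 in limb, and those from N1 fell from 16 to 8. The N2 and N3 libraries of liver replicate 3 each had reads on 8 fragments, and 6 fragments were common to both. In liver replicate 1, both fragments with N1 reads were among the 5 with N2 reads. These libraries share a template, so the common fragments are not separate evidence of contact.

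Reads lay on both sides of the TAD end, and too few libraries held any for the 2 sides to be told apart. The inside part held 10 reads from N1, 64 from N2 and 75 from N3, and the part beyond held 6, 58 and 67. The log2 ratio of reads per kb, inside over beyond, with 0.05 reads per kb added to both, was 0.13 ± 1.39 from N1, −0.20 ± 1.48 from N2 and 0.28 ± 1.83 from N3 (SD, n = 9 libraries). From N1, 1 library was above 0, 1 below and 7 had no read on either side. From N2 the numbers were 1, 3 and 5, and from N3 they were 3, 2 and 4. An exact two-sided sign-flip permutation test gave p = 1, 0.625 and 0.688 (adjusted p = 1 for each). Libraries without reads do not enter it, so with 2, 4 and 5 libraries left it could not go below p = 0.5, 0.125 and 0.0625 (exact), and says nothing for or against a difference. The libraries that held reads pointed in both directions. From N2, liver replicate 1 had 2 reads inside and 37 beyond, whereas liver replicate 3 had 60 inside and 13 beyond. From N3, forelimb replicate 1 had 23 inside and 0 beyond, liver replicate 1 had 0 inside and 8 beyond, and liver replicate 3 had 50 and 55.

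The inside to beyond ratio was also compared between limb and liver. From N3 its mean was 0.75 in limb and −0.68 in liver, a difference of 1.43 on the log2 scale that did not pass an exact permutation test (p = 0.393, adjusted p = 0.875). From N1 and N2 the differences were −0.38 and −0.12 (exact permutation p = 0.583 and 0.988, adjusted p = 0.875 and 0.988). A library without reads on either side has a ratio of 0 from the added reads alone. This held for all 6 N1 limb libraries, so from N1 there was no limb ratio to compare. It also held for 4 of 6 limb libraries from N2 and 3 of 6 from N3. Apart from the N3 library of forelimb replicate 1, no limb library held more than 6 reads on either side of the TAD end, and a difference across it was not detectable at this depth.

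**Figure D3:**
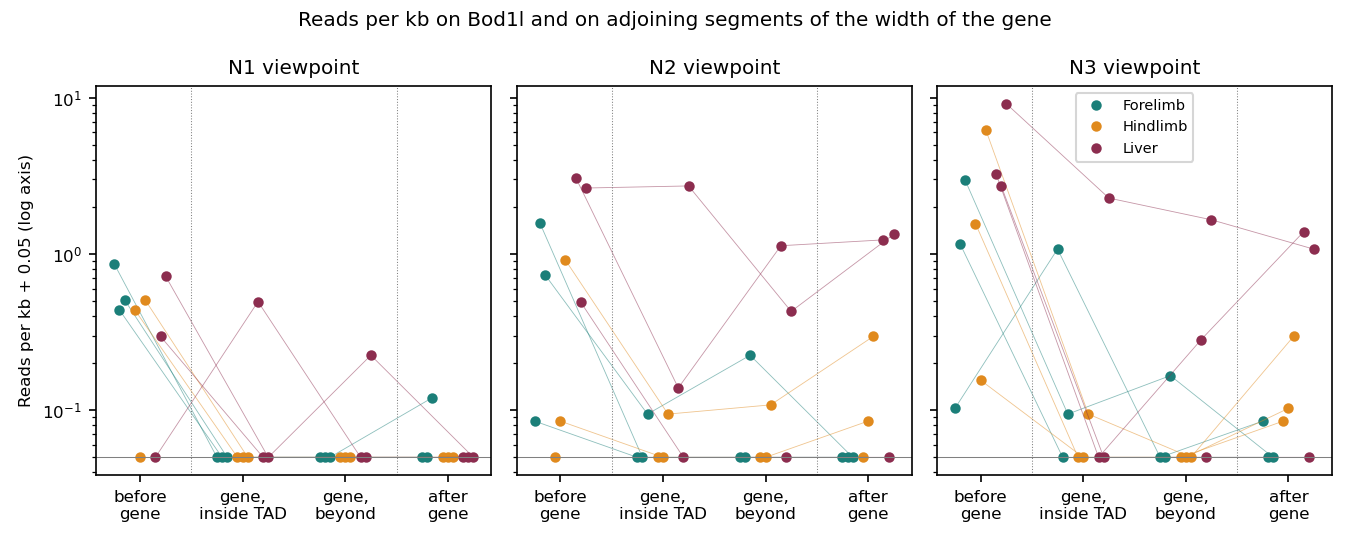
Reads per kb, with 0.05 added, on a log axis for each library and viewpoint, on the segment before *Bod1l*, the part of the gene inside the TAD, the part beyond and the segment after it. Points are libraries coloured by tissue, thin lines join the values of 1 library, and the grey line at the bottom marks 0 reads. Most libraries drop from the segment before to the gene, and no common direction is seen between the inside part and the part beyond.

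*Bod1l* held fewer reads than the segment of equal width that lies before it in the TAD. That segment, chr5:41730760-41787537, holds *Nkx3-2* and had 194 reads from N1, 523 from N2 and 1524 from N3, against 16, 122 and 142 on the gene. The mean log2 ratio of the gene to it was −2.18 ± 2.00 from N1, −2.01 ± 1.58 from N2 and −3.56 ± 2.64 from N3 (SD, n = 9 libraries). All 3 passed an exact two-sided sign-flip permutation test with Benjamini-Hochberg adjustment over 6 comparisons (p = 0.0156, 0.00781 and 0.0117, adjusted p = 0.03125 for each), and for N2 this p is the smallest that 8 libraries with reads can give. The gene was lower in 7 of 9 N1 libraries, 8 of 9 N2 libraries and 8 of 9 N3 libraries. It was higher in the N1 library of liver replicate 1, with 10 reads against 0, and in the N3 library of forelimb replicate 1, with 23 against 3. The segment before the gene also holds more *BglII* fragments, 25 against 15 on the gene. In reads per fragment the ratios were −2.68, −2.18 and −3.81. N1 then no longer passed (exact permutation, adjusted p = 0.0625, 0.0469 and 0.0469). That segment is also nearer to every viewpoint, and distance and position in the TAD cannot be told apart here. With the ratio of the mirror-image segments, at the same distances on the other side of the viewpoint, subtracted in each library, the values were −1.66, −0.80 and −2.06. None passed (exact permutation p = 0.0977, 0.484 and 0.0430, adjusted p = 0.293, 0.581 and 0.258). From N2 the mirror image of the segment before the gene holds the TAD start, and that of the gene lies outside the TAD. From N1 both mirror images lie outside the TAD, and from N3 both lie inside it. From N2 the subtraction therefore mixes distance with position in the TAD. From N1 and N3 the 2 mirror images do not differ in that position, but the subtracted ratios did not pass there either. The calls held without hindlimb replicate 2 or liver replicate 1 from every viewpoint, without forelimb replicate 1 from N2 and N3, and without hindlimb replicate 1 from N2. They were lost without any one of the other libraries (exact permutation, adjusted p of at most 0.0625).

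The segment after the gene, chr5:41844316-41901093, lies wholly outside the TAD. It had 4 reads from N1, 156 from N2 and 155 from N3. The mean log2 ratios of the gene to it were 0.28 ± 1.02, −0.14 ± 0.90 and −0.23 ± 1.68 (SD, n = 9), and none passed (exact permutation p = 0.5, 0.75 and 0.703, adjusted p = 0.75 for each). From N2, liver replicate 3 held 73 reads on the gene and 73 after it, which is a ratio of 0. With 3 and 4 libraries off 0 from N1 and N2, the exact test could not go below p = 0.25 and 0.125 there. The SDs were larger than the means, and these ratios do not show that the gene and the segment after it were contacted alike.

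**Figure D4:**
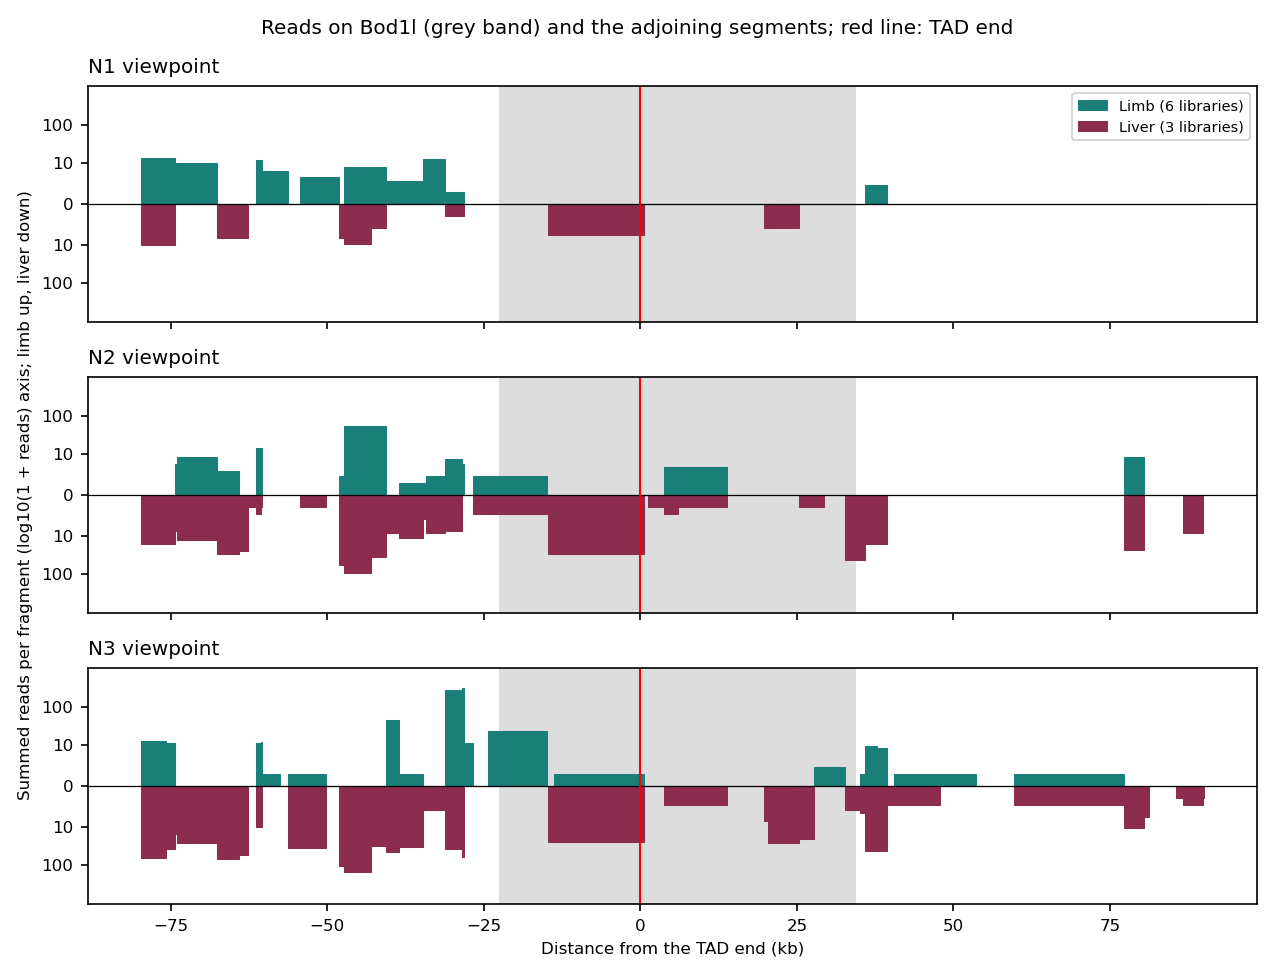
Reads per fragment summed over 6 limb libraries (up) and 3 liver libraries (down), on an axis of log10(1 + reads), against distance from the TAD end in kb, for each viewpoint. The grey band is *Bod1l* and the red line the TAD end. Most reads lie before the gene, and the highest N3 limb bars, 270 and 296 reads, end 5.99 and 5.77 kb short of its 3′ end.

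The most limb reads on any fragment of the adjoining segments lay just before the gene. From N3, the fragments chr5:41778843-41781546 and chr5:41781547-41781769 held 270 and 296 limb reads, in 5 of 6 limb libraries, and 38 and 63 liver reads. Hindlimb replicate 3 alone held 156 and 170 of them, and without it the limb sums were 114 and 126. The other libraries with reads held 64 and 75 in forelimb replicate 3, 42 and 42 in hindlimb replicate 1, 5 and 6 in forelimb replicate 2, and 3 and 3 in hindlimb replicate 2. The second of them ends 5.77 kb before the 3′ end of *Bod1l*, so these contacts were outside the gene. Between them and the gene lay 11 more N3 limb reads, in 1 library, and 2 N2 limb reads. From the gene itself, the N3 limb libraries held 29 reads in all.

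The share of fragments with any read was also lower on the gene than before it. In limb, over all viewpoints, 4.07% of the pairs of fragment and library on *Bod1l* held reads, against 16.9% before the gene and 3.70% after it. In liver, reads lay on 27 of 135 pairs on the gene, and on 32.9% of pairs before it and 11.1% after it. Liver shares were above limb shares elsewhere within 2 Mb too, though not from N1 in the segments beside the gene. Over all other fragments within 2 Mb of the viewpoint, reads lay on 2.84% of pairs in limb and 7.57% in liver from N1, 3.99% and 15.3% from N2, and 5.81% and 14.9% from N3. On *Bod1l* the shares were 0% and 8.89% from N1, 6.67% and 28.9% from N2, and 5.56% and 22.2% from N3. From N1 alone, limb and liver shares were 17.3% and 14.7% before the gene, and 1.39% and 0% after it. The liver replicates were uneven. In liver replicates 1, 2 and 3, reads lay on 332, 92 and 985 fragments of chromosome 5 from N1. From N2 the numbers were 1175, 325 and 2498, and from N3 they were 1944, 1158 and 3682.

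The difference between limb and liver on *Bod1l* passed the test from no viewpoint. On the scale of log2 RPM, reads relative to library depth with 0.5 reads added, limb minus liver was −2.10 from N1, −3.23 from N2 and −1.59 from N3. An exact two-sided permutation test over the 84 arrangements of 6 limb and 3 liver libraries, whose smallest p is 0.0119, gave p = 0.0595, 0.190 and 0.452 (adjusted p = 0.179, 0.286 and 0.452). The limb SD was 0.95, 2.30 and 2.16 and the liver SD 2.03, 4.18 and 3.78, so the difference was smaller than the liver SD from N2 and N3 but not from N1. The N1 value depends on the added reads, since every limb library was at 0, and is no fold change. The values moved with single liver libraries. Without liver replicate 3 the differences were −1.54 from N2 and 0.23 from N3, and without liver replicate 2 they were −5.57 and −3.54. For the inside part alone the differences were −0.87, −2.40 and −0.18, and for the part beyond they were −0.64, −2.51 and −2.52, with adjusted p of at least 0.286 throughout (exact permutation). Between forelimb and hindlimb, where 3 libraries against 3 cannot give a p below 0.10, the differences were −0.26 from N2 (exact permutation p = 0.9) and 2.27 from N3 (exact permutation p = 0.3).

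To set *Bod1l* against other stretches of the locus, reads were summed in windows as wide as the gene over 2 Mb to each side of the viewpoint. Of 68, 68 and 70 windows from N1, N2 and N3, 7, 12 and 24 held enough reads for edgeR's quasi-likelihood test, and the window of *Bod1l* did not for any viewpoint. At an adjusted p under 0.05, 0% of the tested windows were called between limb and liver or between forelimb and hindlimb from any viewpoint. At an unadjusted p under 0.05 edgeR gave 0 windows between limb and liver from each viewpoint, and between the limbs 0, 1 and 0. The unadjusted number between limb and liver depended on the settings. Without the filter on low counts it was 3 of 57, 21 of 65 and 6 of 69 windows from N1, N2 and N3. Scaled to library totals it was 0 of 11, 7 of 17 and 0 of 23. With adjustment, 0 were called in each. DESeq2 called 1 window, between forelimb and hindlimb from N2, and 0 otherwise. With the filter on low counts removed, the *Bod1l* window had an edgeR log2 fold change of limb over liver of −2.42 from N2 and −2.06 from N3 (adjusted p = 0.361 and 0.813).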

How the data were processed

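The 27 4C-Seq libraries from forelimb buds, hindlimb buds and liver and the viewpoints N1, N2 and N3 were used. Where label fields disagreed (the replicate number of hindlimb replicate 3, the enhancer of the N3 livers), the titles were followed. The authors trimmed reads (cutadapt 1.10), mapped them to mm10 (BWA 0.7.10-r789), removed blacklisted regions and alignments with a mapping quality below 30, and counted reads per *BglII* fragment, and the submitters' processing notes also list GATK 3.4-0. The values used are deposited counts, whole and not normalized. Such filters can lower the count of a fragment with repetitive ends.

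Each of the 51861 *BglII* sites on chromosome 5 of GRCm38 matched the end of a listed fragment, so sequences were read from that build (RefSeq assembly) and genes from GENCODE vM21. The TAD and the primers are those of the study, where the TAD is given to the nearest 10 kb and a narrower width stands beside the locus in another listing. Segments of the gene's width were compared within each library as log2 ratios of reads per kb, with 0.05 reads per kb added, by an exact sign-flip permutation test. Its smallest p depends on how many libraries had a ratio other than 0 (0.00391 with all 9). RPKM used the total of each library. The fragments described singly were the 3 with the most reads for each viewpoint, those with reads in at least 3 libraries of a viewpoint, and those holding the 5′ end and the TAD end. The limb fragments just before the gene, the fragment at the 5′ end of *Nkx3-2*, the other fragments of the gene with reads and the fragments without reads were chosen after their values were seen. The gene, rules and tests were chosen with earlier results of these data known.

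R 4.3.3 ran the window tests, by edgeR 4.0.16 (filterByExpr, TMM and quasi-likelihood, adjusted p under 0.05 after Benjamini-Hochberg) and, for comparison, DESeq2 1.42.0. The remaining steps used scipy 1.17.1, pandas 2.3.3 and numpy 2.4.6 under Python 3.11.15. The window test was tested on simulated data, where it recovered the changed windows at a low dispersion and few or none at that of the real windows. Alternatives changed the added reads, the TAD end, the widths, the weighting of fragments, the scaling, the filter and the libraries, and added the replicate number as a block. Counts per fragment, the mirror-image segments and the stretch between *Nkx3-2* and *Bod1l* were added after seeing the data.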

Additional observations from a re-analysis of the deposited data

How the results depend on the processing

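Of 114 alternatives for the ratios and limb minus liver, apart from libraries left out, 90 kept the direction and the side of the threshold. For windows called, 29 of 30 did so. With so few libraries holding reads, the inside to beyond ratio could hardly pass in any alternative, so its part of the 90 does not show stability. The ratio to the segment after the gene, limb minus liver and the windows also had no call to lose. Only the ratio to the segment before the gene had passed. From N1, N2 and N3 it kept its call in 5, 7 and 7 alternatives and lost it in 5, 3 and 3. From N1 in limb alone this ratio was 0, with no read in any library, and was counted as kept. The inside to beyond ratio changed sign with the TAD end 10 kb earlier (N1, −0.047) or later (N2, 0.31, and N3, −0.0045), with the ratio of the mirror-image segments subtracted (N1, −0.12), with 0.5 reads per kb added (N2, 0.0093), with equal widths (N2, 0.22), per fragment (N2, 0.040) and with each fragment counted once (N3, −0.019), and leaving out 1 library gave −0.27 to 0.41 from N1, −0.56 to 0.15 from N2 and −0.24 to 0.62 from N3. The ratio to the segment after the gene changed sign in limb alone (N1, −0.21), with fragments counted once (N2, 0.16), with equal neighbours taken once (N2, 0.070), per fragment (N2, 0.13) and with the mirror-image ratio subtracted (N3, 1.14), and ran from 0.05 to 0.48, −0.38 to 0.036 and −0.56 to 0.10 over libraries left out.

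The ratio to the segment before the gene stayed below 0 throughout. It lost its call in limb alone (−2.84, −1.96 and −3.32, exact permutation adjusted p = 0.188 each). From N1 and N2, all 5 limb libraries with reads were below 0. With 5 libraries the exact test cannot go below p = 0.0625, so the call could not be kept there. The ratio also lost its call with the mirror-image ratio subtracted (−1.66, −0.80 and −2.06). For N1 it did so against the stretch between *Nkx3-2* and *Bod1l* (−1.38) and per fragment (−2.68). With 1 library left out it was −2.73 to −1.94, −2.26 to −1.64 and −4.28 to −3.19, and it stayed past the threshold in 2, 4 and 3 of 9 cases. Limb minus liver ran from −3.28 to −1.46, −5.57 to −1.54 and −3.54 to 0.23.

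As block means over the replicate numbers, the ratios to the segment before were −2.18, −2.01 and −3.56, where 3 blocks cannot go below p = 0.25 in the exact test. The block changed no other call. Of 9 pairs of same-numbered libraries per viewpoint, 6, 1 and 2 correlated above 0.1 (mean r = 0.135, 0.0474 and 0.0114). All 3 pairs did so only for forelimb and hindlimb from N1, where 0 windows were called with the block and without it, and whether the numbers mark shared embryos is not given in the sources used here. Between forelimb and hindlimb from N2, DESeq2 called 1 window and edgeR called 0 to 5 with 1 library left out, 5 without forelimb replicate 3. Windows called stayed at 0 in the other comparisons. N1 depth limits all N1 values.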

Other observations

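The reads on *Bod1l* were divided unevenly between replicate numbers. The 9 libraries numbered 1 held 80 reads on the gene, in 4 libraries, and the 9 numbered 2 held 0 reads. The 9 numbered 3 held 200 reads, in 7 libraries, of which 184 reads lay in liver replicate 3. These libraries held 7017054, 5646991 and 6083531 reads in all, summed over viewpoints of very unlike depth. The N3 library of liver replicate 3, with 105 reads on the gene, was the deepest of all, with 2376866 reads. The N2 library of liver replicate 3, with 73 reads on the gene, was the shallowest N2 liver library, with 231130. Whether depth contributed was not tested. The segment before the gene held 513, 371 and 1357 reads, and that after it 147, 5 and 163. Elsewhere within 2 Mb, reads lay on 5.75, 3.42 and 11.9% of the pairs of fragment and library. Replicate numbers join no samples across tissues in the labels, and no test was run on them.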
